A study of Rattus norvegicus with 4 samples.

Results

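The heat shock proteins and chaperones described here are the 87 genes, of 22118 gene symbols measured, whose symbols begin with Hsp, Dnaj, Cct and a digit, or Bag and a digit, leaving out those beginning with Hspg and Hspbap. Membership was set by symbol alone and not by the values of single genes. The group itself was chosen with earlier results of these data known. By the place where their proteins are known to work, 37 are cytosolic or nuclear, 9 belong to the chaperonin CCT or carry its symbol, 10 are mitochondrial, 15 belong to the endoplasmic reticulum (ER) and 16 were left unplaced. Transcripts of single liver cells from Lewis rats were counted in 4 libraries, 1 for each group. NEVLPcty is a liver perfused for 4 h at 37 °C with the cytokines IL-10 and TGF-β, NEVLP2 a liver perfused for 4 h at 37 °C, CS a liver held for 4 h at 4 °C, and naive (spelled Nave in the labels) a liver with no preservation. The readings of CS and of NEVLPcty rest on the series description, and the digit in NEVLP2 is not explained there. Per the labels, the perfusate of both perfused groups contained William's E medium, penicillin and streptomycin, pyruvate, glutamine, human albumin, heparin, papaverine, insulin, hydrocortisone and Lewis red cells from which white cells had been removed. How the cells were isolated, how many animals gave each library, and whether any cell type was enriched are not given in the sources used here. With 1 library per group there is no replicate spread and no test was possible. A difference between groups cannot be told apart from a difference between the animals or the preparations, and every interval below covers counting error only.

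Chaperones bind unfolded stretches of other proteins and keep them from clumping while they fold. In the cytosol the constitutive Hsp70 protein Hspa8 and its inducible relatives receive clients from J-domain proteins (the Dnaj families), release them with the help of exchange factors (Hsph1, Hspa4 and the Bag proteins) and pass some of them to Hsp90. Heat shock factor 1 switches on the inducible members when unfolded protein builds up in the cytosol, and the unfolded protein response does so for the ER members. In the liver, hepatocytes fold a large load of secreted plasma proteins in the ER, so the ER chaperones belong to their normal work as well as to their stress response.

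The libraries held 72271060 unique molecular identifiers (UMIs, each counted as 1 transcript) in NEVLPcty, 65893218 in NEVLP2, 67431270 in CS and 25609611 in naive, and 11616, 9978, 10472 and 3297 cells were retained in NEVLPcty, NEVLP2, CS and naive. Pairs of libraries shared between 11 and 35 cell barcodes. The doublet caller marked 0 cells in NEVLPcty, which is a failed call, and 3 in naive, so doublets remain in both. Cells were clustered without the 87 genes and named from marker transcripts, and 7 classes had at least 50 cells in every library: Kupffer-like, NK-like, T-like, conventional dendritic-like, plasmacytoid dendritic-like, monocyte or macrophage-like and hepatocyte-like cells. T-like, NK-like and plasmacytoid dendritic-like cells came mostly from the same clusters (16, 8 and 18) in every library. For the other classes the perfused libraries and the other libraries filled different clusters: Kupffer-like cells lay mostly in cluster 9 in NEVLPcty and NEVLP2 but in cluster 10 in CS and naive, and conventional dendritic-like cells in cluster 17 in both perfused libraries but in cluster 20 in CS and naive. Hepatocyte-like cells lay mostly in cluster 13 in NEVLPcty, in cluster 0 in NEVLP2 and in cluster 5 in CS and naive, and monocyte or macrophage-like cells in cluster 15 in both perfused libraries, in cluster 23 in CS and in cluster 21 in naive. Endothelial-like cells numbered 3129 in NEVLPcty, 519 in NEVLP2 and 5116 in CS but 34 in naive, so they were compared apart and without naive.

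Levels are summed UMIs of a class in counts per 1000000 UMIs of that class (CPM), and a class-averaged level gives each of the 7 classes the same weight. UMI counts were not divided by gene length, so levels of different genes were not set against each other. A ratio was counted as higher or lower when it reached 2-fold with at least 50 counts in the pair of libraries. By that measure 72 of the 87 members could be compared in at least 1 pair and 69 in all 5 pairs examined. The 15 that could be compared in none were Bag5, Cct6b, Cct8l1, Dnajb7, Dnajb8, Dnajc5b, Dnajc5g, Dnajc28, Hspa12a, Hspa1a, Hspa1l, Hspb2, Hspb3, Hspb7 and Hspb9. Of these Dnajb8 had no UMI in any library, and Hspa12a had the most, at 199. The comparisons share libraries (CS enters 3 of them, NEVLP2 3), so they are not independent of each other.

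**Figure D1:**
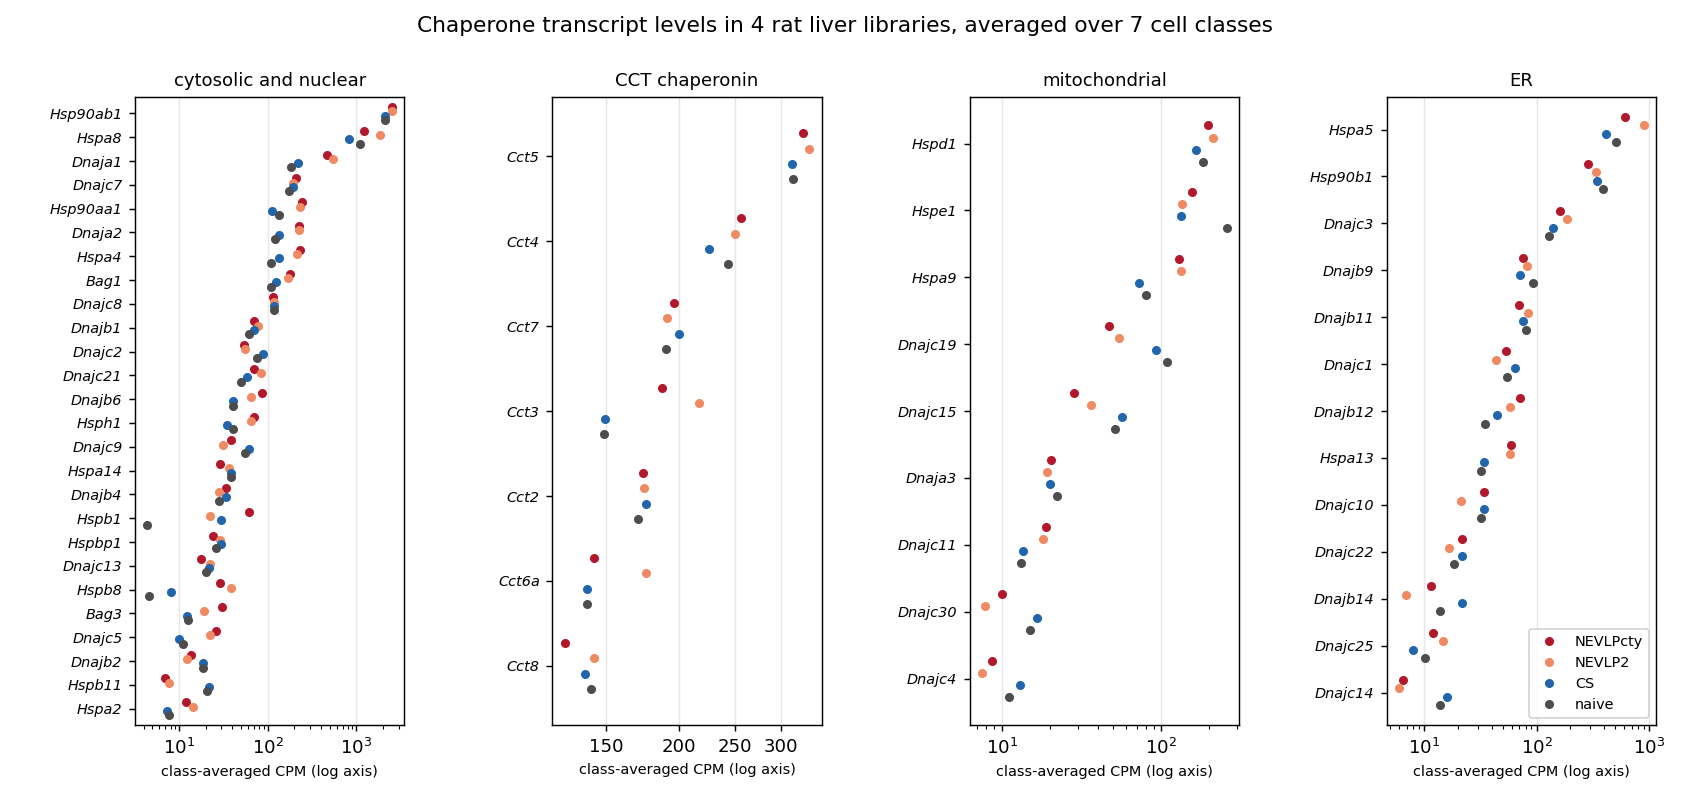
Class-averaged level (CPM, logarithmic axis) of the 55 placed members that averaged at least 10 CPM over the libraries, by compartment; each point is 1 library, there are no replicates, and each panel has its own range. Dnaja1, Hsp90aa1 and Hspb8 lie further to the right in NEVLPcty and NEVLP2 than in CS and naive, Hspb11 and Dnajc19 lie further to the left, and the CCT panel spans less than the others. The Hspb8 average comes almost wholly from hepatocyte-like cells, at 195 CPM in NEVLPcty and 255 in NEVLP2. The other averaged classes of these libraries had at most 3.97 CPM.

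Among the cytosolic members, the 2 perfused libraries stood above the other 2 for a set of Hsp70 and Hsp90 chaperones and their J-domain partners. Dnaja1, the J-domain protein that hands newly made and misfolded clients to Hspa8, averaged 463 CPM in NEVLPcty, 547 in NEVLP2, 219.9 in CS and 184 in naive. That is 2.1-fold more in NEVLPcty than in CS and 2.48-fold more in NEVLP2 than in CS, and its level was above that of CS in 7 of 7 classes for NEVLP2. Hsp90aa1, the inducible Hsp90, averaged 245 CPM in NEVLPcty, 233 in NEVLP2, 112 in CS and 133 in naive, and both perfused libraries were above CS in 7 of 7 classes. Hsph1, a large Hsp70 relative that works as an exchange factor, averaged 70.6 CPM in NEVLPcty, 63.9 in NEVLP2, 34.7 in CS and 40.7 in naive. For Hsph1 the ratio to CS was past 2-fold in NEVLPcty (2.03) and short of it in NEVLP2 (1.84). Levels were also computed without the cell with most UMIs of a gene in each class and library, a setting chosen after seeing the data. The Hsph1 ratios were then 1.93 in NEVLPcty and 1.80 in NEVLP2, both short of 2-fold. Dnaja1 was then at 1.997 in NEVLPcty over CS, just short, and at 2.46 in NEVLP2 over CS. The constitutive Hsp70 Hspa8 averaged 1233 CPM in NEVLPcty, 1839 in NEVLP2, 836 in CS and 1102 in naive, which made NEVLP2 the highest library and CS the lowest. Hsp90ab1, the constitutive Hsp90, averaged 2525 CPM in NEVLPcty, 2532 in NEVLP2, 2096 in CS and 2082 in naive and stayed within 2-fold in every pair.

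Several exchange factors and anti-aggregation proteins were also higher in the perfused libraries. Bag3, which links Hsp70 and small heat shock proteins to autophagy, averaged 30.8 CPM in NEVLPcty, 19.0 in NEVLP2, 12.1 in CS and 12.6 in naive. Dnajb6, a J-domain protein that holds back amyloid-forming proteins, averaged 85.9 CPM in NEVLPcty, 64.3 in NEVLP2, 40.6 in CS and 40.7 in naive. Dnajc5, the cysteine string protein of secretory vesicles, averaged 25.9 CPM in NEVLPcty, 22.1 in NEVLP2, 9.93 in CS and 11.0 in naive. All 3 were at least 2-fold higher in NEVLPcty than in CS, at 2.54-fold for Bag3, 2.12-fold for Dnajb6 and 2.61-fold for Dnajc5. In NEVLP2 against CS only Dnajc5 of these 3 passed 2-fold. Bag4, a further Bag protein, known as a silencer of death domains, averaged 11.0 CPM in NEVLPcty, 10.1 in NEVLP2, 7.74 in CS and 4.29 in naive, with its lowest level in naive. Others came near 2-fold without reaching it in either perfused library against CS. Hspa4, an exchange factor of the Hsp110 kind, averaged 229 CPM in NEVLPcty, 212 in NEVLP2, 134 in CS and 109.9 in naive. The J-domain protein Dnaja2 averaged 226 CPM in NEVLPcty, 224 in NEVLP2, 136 in CS and 121 in naive. Both had the 2 perfused libraries close together and above the other 2. Dnajb1, the classical heat-inducible J-domain protein, averaged 70.1 CPM in NEVLPcty, 78.0 in NEVLP2, 69.3 in CS and 61.0 in naive, which is nearly level. By class its ratio of NEVLP2 over naive ran from 0.727 to 3.22. It was past 2-fold in hepatocyte-like and plasmacytoid dendritic-like cells. Dnajc8, a J-domain protein of the splicing machinery, was level in the class average, at 116 CPM in NEVLPcty, 117 in NEVLP2, 117 in CS and 117 in naive.

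Promoter sequences were searched for the letters to which heat shock factor 1 and the ER stress factors are known to bind. RefSeq windows (rat build GRCr8, 250 bases before to 50 bases after each start) matched 71 of the 87 members by symbol. The heat shock element was searched as the units GAA, TTC and GAA with 2 bases of any kind between neighbours, and the ER stress element as CCAAT and CCACG with 9 bases of any kind between them. Both strands were searched, and overlapping matches were each counted. The heat shock element was found in 6 of the 71 members (8.45%), namely Cct4, Dnaja1, Hspa8, Hspd1, Hspe1 and Hsph1, against 218 of all 27457 genes of the table (0.794%). The ER stress element was found in 3 members (4.23%), the ER chaperones Dnajc3, Hsp90b1 and Hspa5, against 21 of all genes (0.0765%). No ER member held the heat shock letters and no member outside the ER held the ER letters. Of the 13 members that were at least 2-fold higher in a perfused library than in CS or naive, 11 had a window and 3 of those held the heat shock letters, and of the other 59 measured members 49 had a window and 3 held them. The windows of the members whose levels the results below turn on follow, in lower case with each match in capitals, 5′ to 3′ along the gene. Hsph1 lies at chr12:10427118-10427417, plus strand, Dnaja1 at chr5:60638154-60638453, plus strand, Hspa8 at chr8:50080264-50080563, plus strand, Hspe1 at chr9:64084077-64084376, plus strand, Hspa5 at chr3:38452766-38453065, plus strand and Hspb1 at chr12:26432252-26432551, minus strand. Hspb1 is shown because its levels spanned the widest range of these members and neither motif was found in its window. The Hspe1 window shares 211 bases with that of Hspd1, which runs the other way on chromosome 9, so the matches of these 2 genes are not separate.
Hsph1: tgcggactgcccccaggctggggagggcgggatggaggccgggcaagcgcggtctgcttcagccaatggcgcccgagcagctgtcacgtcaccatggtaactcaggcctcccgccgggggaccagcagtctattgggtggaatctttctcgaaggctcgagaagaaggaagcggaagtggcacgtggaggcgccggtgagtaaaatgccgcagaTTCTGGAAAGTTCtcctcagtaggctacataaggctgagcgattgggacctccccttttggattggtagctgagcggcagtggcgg
Dnaja1: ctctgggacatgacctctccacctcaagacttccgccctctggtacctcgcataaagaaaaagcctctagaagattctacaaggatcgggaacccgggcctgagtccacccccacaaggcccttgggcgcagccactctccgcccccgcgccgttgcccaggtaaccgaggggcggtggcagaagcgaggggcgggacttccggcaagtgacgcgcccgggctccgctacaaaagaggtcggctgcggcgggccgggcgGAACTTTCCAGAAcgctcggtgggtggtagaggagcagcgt
Hspa8: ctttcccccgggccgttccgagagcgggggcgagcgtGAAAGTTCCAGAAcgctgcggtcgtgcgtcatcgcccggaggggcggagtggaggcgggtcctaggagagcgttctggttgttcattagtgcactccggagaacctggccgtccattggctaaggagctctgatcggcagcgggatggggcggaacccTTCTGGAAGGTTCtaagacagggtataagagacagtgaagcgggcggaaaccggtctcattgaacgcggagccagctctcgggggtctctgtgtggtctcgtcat
Hspe1: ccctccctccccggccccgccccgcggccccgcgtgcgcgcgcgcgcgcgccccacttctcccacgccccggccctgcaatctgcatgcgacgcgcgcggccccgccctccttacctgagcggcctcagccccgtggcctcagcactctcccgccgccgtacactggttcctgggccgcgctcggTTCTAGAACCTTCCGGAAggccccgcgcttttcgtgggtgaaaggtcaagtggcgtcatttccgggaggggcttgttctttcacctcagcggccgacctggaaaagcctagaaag
Hspa5: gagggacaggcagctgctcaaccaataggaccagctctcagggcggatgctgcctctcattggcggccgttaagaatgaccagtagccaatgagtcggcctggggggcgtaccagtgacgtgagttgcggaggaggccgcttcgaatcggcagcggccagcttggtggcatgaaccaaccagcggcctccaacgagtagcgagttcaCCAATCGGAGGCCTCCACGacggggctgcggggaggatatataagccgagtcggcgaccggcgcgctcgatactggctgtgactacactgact
Hspb1: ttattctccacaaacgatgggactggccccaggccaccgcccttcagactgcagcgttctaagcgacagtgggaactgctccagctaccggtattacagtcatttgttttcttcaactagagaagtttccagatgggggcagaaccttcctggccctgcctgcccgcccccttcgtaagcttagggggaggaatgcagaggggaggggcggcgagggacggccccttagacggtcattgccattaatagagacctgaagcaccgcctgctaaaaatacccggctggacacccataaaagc
A match is a run of letters and not a measured binding site, and no match says only that these letters are not in the window.

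Over all compartments together, the shares of members that were at least 2-fold higher lay near those of all genes, so these counts are no result about chaperones as a whole. In NEVLPcty against NEVLP2, 2 of 70 members were at least 2-fold higher (Hspb1 and Hspb6; 2.86%, against a background of 7.34% of all genes) and 1 was at least 2-fold lower (Dnajb3; 1.43%, background 3.14%). In NEVLPcty against CS, 9 of 71 were higher (12.7%, background 8.63%) and 4 were lower (5.63%, background 14.6%). The 9 were Bag3, Dnaja1, Dnajb6, Dnajc5, Hsp90aa1, Hspa4l, Hspb1, Hspb8 and Hsph1, all of them cytosolic. In NEVLP2 against CS, 7 of 70 were higher (10%, background 7.49%) and 6 were lower (8.57%, background 20.4%). The 7 were Bag2, Dnaja1, Dnajc5, Hsp90aa1, Hspa5, Hspa8 and Hspb8. In NEVLP2 against naive, 6 of 70 were higher (Bag2, Bag4, Dnaja1, Dnajc5, Hspb1 and Hspb8; 8.57%, background 11.1%) and 4 were lower (5.71%, background 17.5%). In CS against naive, 1 of 69 was higher (Hspb1; 1.45%, background 4.74%) and 0 were lower (background 2.3%), so the members differed past 2-fold least often in this pair.

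The compartments differed in their medians. The cytosolic members had a median log2 ratio of 0.47 in NEVLPcty against CS, 0.39 in NEVLP2 against CS and 0.62 in NEVLP2 against naive, where the median of all genes was -0.08, -0.24 and -0.11. The 7 measured CCT subunits had medians of 0.04, 0.10 and 0.04 in the same 3 pairs, and none of them passed 2-fold in any pair. The mitochondrial members had medians of 0.02, -0.07 and -0.50, and the ER members 0.07, -0.01 and -0.16. In NEVLPcty against NEVLP2 the medians were 0.07 for the cytosolic, -0.04 for the CCT, 0.06 for the mitochondrial and 0.09 for the ER members, against 0.13 for all genes. In CS against naive they were 0.12, 0.00, -0.13 and 0.10 for the same 4 groups, against 0.12 for all genes. These medians are descriptions of these libraries, and no test of a list was made.

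**Figure D2:**
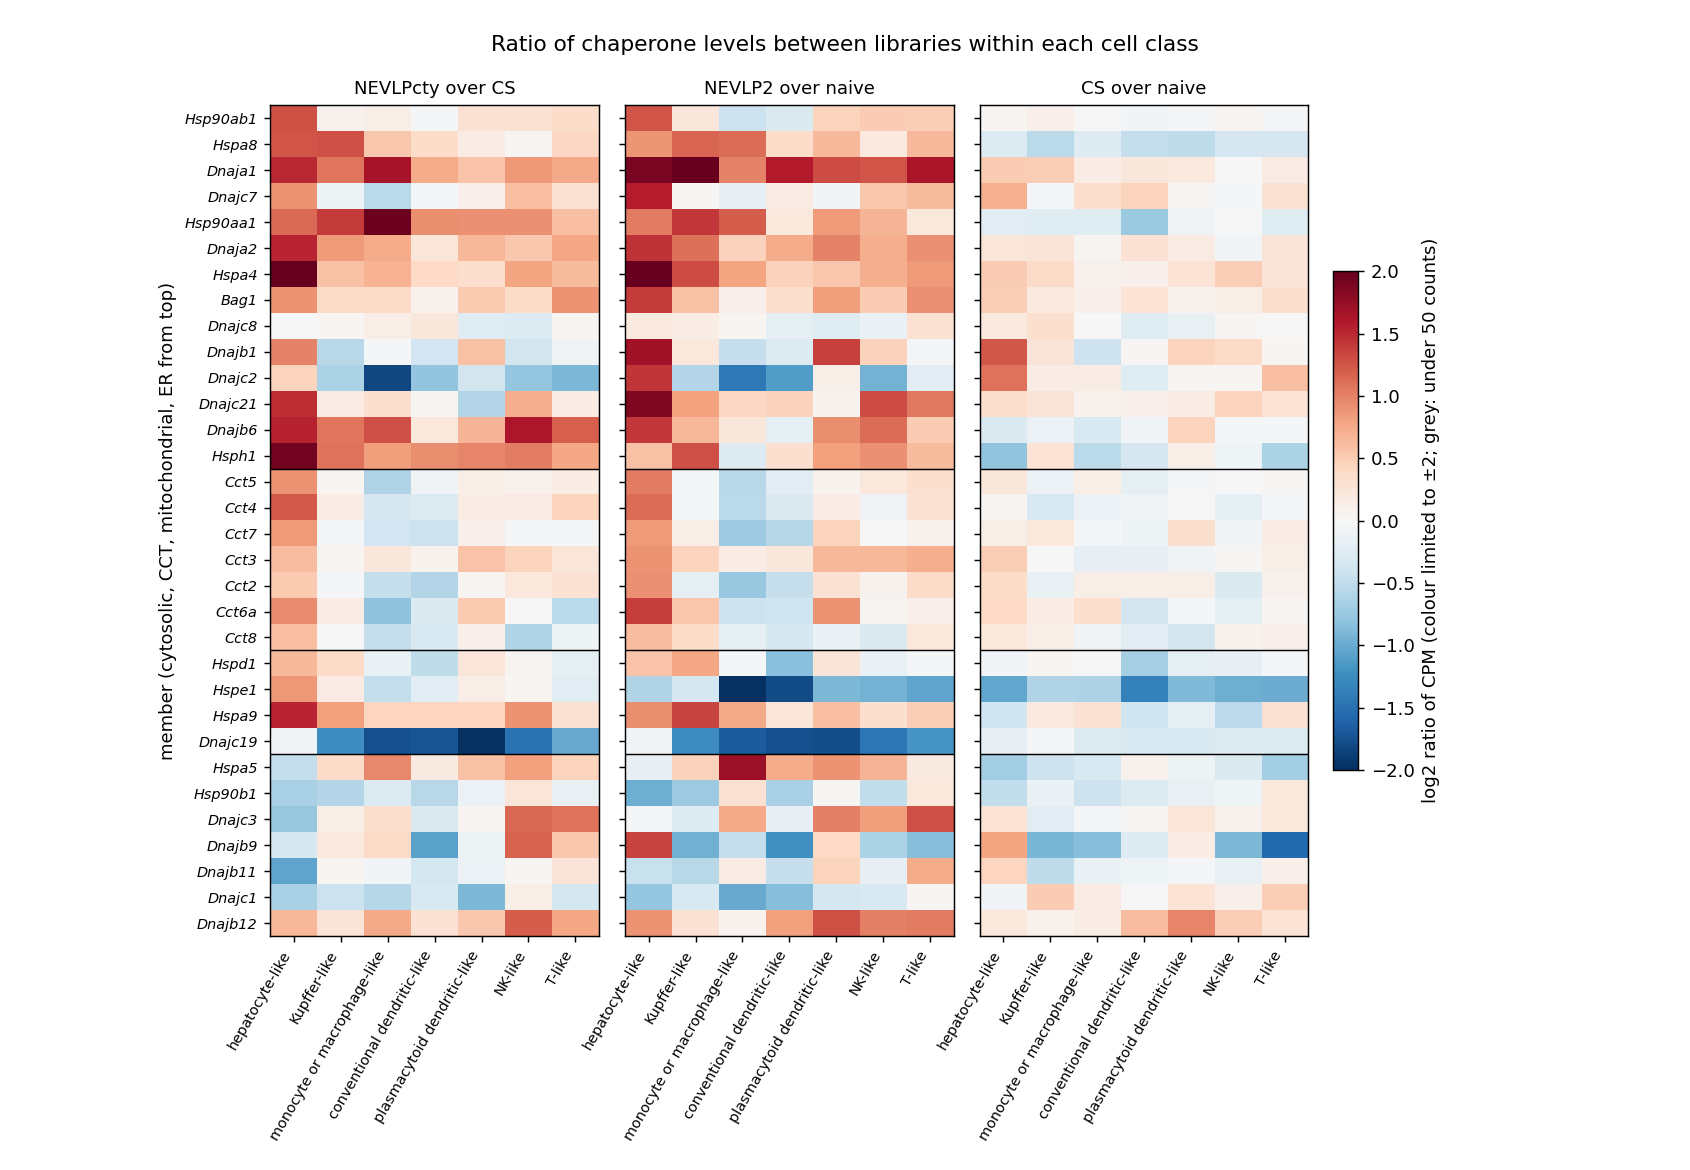
Log2 ratio of CPM for the 32 members with a class-averaged level of at least 50 CPM (rows, by compartment) in the 7 averaged classes (columns) for NEVLPcty over CS, NEVLP2 over naive and CS over naive; each tile compares 1 library with 1 library, and colours stop at 2 in either direction. In the NEVLPcty over CS and NEVLP2 over naive panels Dnaja1, Hsp90aa1 and Hspa8 are above 0 in all 7 classes and Dnajc19 is below 0, only slightly so in hepatocyte-like cells; in the CS over naive panel Hspe1 is below 0 in all 7.

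Hepatocyte-like cells had several cytosolic chaperones that were many-fold higher after perfusion. Hspb8, a small heat shock protein that works with Bag3, was at 195 CPM in NEVLPcty (95% interval 181 to 209), 255 in NEVLP2 (243 to 267), 55 in CS (45.4 to 66.0) and 29.3 in naive (23.6 to 35.9). NEVLP2 was 8.71-fold (95% interval 7.06 to 10.8) above naive and 4.63-fold (95% interval 3.84 to 5.65) above CS. NEVLPcty was 3.54-fold (95% interval 2.91 to 4.35) above CS. Both perfused libraries were thus well above both others, and CS was above naive by less. After each cell was thinned to 1000 UMIs, the share of hepatocyte-like cells with an Hspb8 UMI was 15.3% in NEVLPcty (95% interval 13.2 to 17.5%), 21.0% in NEVLP2 (95% interval 19.4 to 22.6%), 4.40% in CS (95% interval 3.06 to 6.09%) and 2.13% in naive (95% interval 1.26 to 3.34%). The unthinned shares were 34.0% in NEVLPcty, 30.6% in NEVLP2, 11.0% in CS and 7.83% in naive, at median depths of 2024 UMIs in NEVLPcty, 1403 in NEVLP2, 1853 in CS and 2279 in naive. Thinning left out 199 cells in NEVLPcty, 1056 in NEVLP2, 103 in CS and 124 in naive. In T-like cells, taken as background, no thinned cell held an Hspb8 UMI, which allows shares of up to 3.39% in NEVLPcty, 2.12% in NEVLP2, 2.25% in CS and 1.16% in naive (upper 95% limits). The unthinned shares in T-like cells were 0.917% in NEVLPcty, 2.91% in NEVLP2, 0% in CS and 0% in naive. The T-like cells had median depths of 7337 UMIs in NEVLPcty, 7309.5 in NEVLP2, 6056 in CS and 9458 in naive. In naive no thinned cell of 7 other classes held an Hspb8 UMI either, but with fewer cells in most of them the upper limits ran from 0.745% to 6.06%, so the naive share in hepatocyte-like cells lies within the range of these limits. Hspb8 is among the 10 leading genes of cluster 0, which holds 92.9% of the NEVLP2 hepatocyte-like cells, so that cluster and that library largely coincide.

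The exchange factor Hspa4 was at 294 CPM in NEVLPcty (95% interval 278 to 312), 240.0 in NEVLP2 (229 to 252), 66.0 in CS (55.4 to 77.9) and 46.6 in naive (39.4 to 54.7) in hepatocyte-like cells, and NEVLP2 was 5.15-fold (95% interval 4.35 to 6.14) above naive. Dnaja1 was at 933 CPM in NEVLPcty, 859.7 in NEVLP2, 329 in CS and 230.1 in naive, and NEVLP2 was 3.74-fold (95% interval 3.46 to 4.04) above naive. Hsp90ab1, which was nearly level in the class average, was at 1571 CPM in NEVLPcty, 1521 in NEVLP2, 649.7 in CS and 633 in naive here, and NEVLP2 was 2.40-fold (95% interval 2.29 to 2.52) above naive. For each of these 3 genes both perfused libraries stood above the other 2. Hspa8 was at 599.8 CPM in NEVLPcty, 558 in NEVLP2, 251 in CS and 302 in naive. Hsp90aa1 was at 86.0 CPM in NEVLPcty, 94.8 in NEVLP2, 39.2 in CS and 46.0 in naive. Hsph1 was at 47.4 CPM in NEVLPcty, 32.0 in NEVLP2, 12.4 in CS and 21.4 in naive. These 3 had CS, and not naive, as the lowest library. Summed over the cytosolic members, hepatocyte-like cells carried 4838 CPM in NEVLPcty, 4629.9 in NEVLP2, 2002 in CS and 1741 in naive. The CCT members summed to 1141 CPM in NEVLPcty, 1061 in NEVLP2, 641 in CS and 537 in naive. The mitochondrial members summed to 1677 CPM in NEVLPcty, 1526 in NEVLP2, 1036 in CS and 1356 in naive. All 3 sums were highest in NEVLPcty. The ER members went the other way and summed to 576 CPM in NEVLPcty, 773 in NEVLP2, 838 in CS and 856 in naive. That order did not hold when the unnamed cluster 3, which hepatocyte markers led, was added, and the ER sum was then 569 CPM in NEVLPcty, 771 in NEVLP2, 631 in CS and 738 in naive.

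Within the ER group of hepatocyte-like cells, Hspa5, the Hsp70 protein of the ER lumen also called BiP, was at 71.9 CPM in NEVLPcty, 145 in NEVLP2, 100.4 in CS and 162 in naive. Hsp90b1, the Hsp90 of the ER, was at 94.5 CPM in NEVLPcty, 106 in NEVLP2, 149 in CS and 209.6 in naive. Dnajb11, a J-domain partner of Hspa5, was at 30.6 CPM in NEVLPcty, 34.7 in NEVLP2, 63.6 in CS and 47.2 in naive. NEVLPcty was the lowest library for all 3, and for Hspa5 it was 2.01-fold (95% interval 1.76 to 2.31) below NEVLP2. Among the mitochondrial members, the Hsp70 protein Hspa9 was at 331 CPM in NEVLPcty, 288 in NEVLP2, 115 in CS and 151 in naive. The chaperonin Hspd1 was at 565 CPM in NEVLPcty, 554 in NEVLP2, 359 in CS and 372 in naive. Its lid protein Hspe1 was at 416 CPM in NEVLPcty, 308 in NEVLP2, 228 in CS and 467 in naive. Hspa9 and Hspd1 were higher in both perfused libraries than in the others, whereas Hspe1 was highest in naive.

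The share of members that were at least 2-fold higher in hepatocyte-like cells was close to that of all genes, so it is no result about chaperones. In NEVLPcty against CS, 15 of 55 members were higher (27.3%, background 26.3%) and 2 were lower, Dnajb11 and Dnajc10 (3.64%, background 10.2%). In NEVLP2 against CS, 18 of 57 were higher (31.6%, background 25.6%) and 0 were lower (background 7.46%). In NEVLP2 against naive, 23 of 57 were higher (40.4%, background 37.4%) and 0 were lower (background 6.49%). Of the cytosolic members alone, 12 of 24, 15 of 26 and 19 of 26 were higher in these 3 pairs. In NEVLPcty against NEVLP2, 1 of 58 was higher (Dnaja4; 1.72%, background 2.95%) and 2 were lower (Hspa14 and Hspa5; 3.45%, background 6.79%). In CS against naive, 3 of 51 were higher (Dnajb1, Dnajc2 and Hspb1; 5.88%, background 10.2%) and 1 was lower (Hspe1; 1.96%, background 4.38%). The median log2 ratio of the cytosolic members was 1.01, 1.18 and 1.44 in NEVLPcty against CS, NEVLP2 against CS and NEVLP2 against naive, while all genes were shifted too, with medians of 0.49, 0.40 and 0.66. The hepatocyte markers, among them the plasma protein genes Alb and Apoa1, summed to 81980 CPM in NEVLPcty, 77234 in NEVLP2, 126322 in CS and 132009 in naive. The sums were lower in both perfused libraries, and their part in these ratios was not tested. The median share of UMIs from mitochondrial genes in hepatocyte-like cells was 0.0745% in NEVLPcty, 1.26% in NEVLP2, 0.983% in CS and 4.34% in naive, so it differed between the libraries as well, and its part was not tested. Relative to the median of all genes, 7 members were higher in NEVLPcty against CS, 7 in NEVLP2 against CS and 8 in NEVLP2 against naive. Centring on that median also changes the share of all genes past 2-fold. The backgrounds above therefore do not apply to these counts, which are not read as a result about chaperones. The immediate early genes, which tissue handling also switches on, summed to 2580 CPM in NEVLPcty, 2759 in NEVLP2, 2735 in CS and 475 in naive in hepatocyte-like cells, lowest in naive, and their part was not tested. Unnamed cluster 3 held 246 cells of NEVLPcty, 31 of NEVLP2, 1462 of CS and 624 of naive. When the unnamed clusters were added to the classes whose markers led them, 7 and 10 members were higher in NEVLPcty and NEVLP2 against CS. The share of all genes in that wider set is not given here. Of the genes given above, the ratio of NEVLP2 over CS moved by over 1.5 times for Hspa9, to 1.65, and for Hsph1, to 1.64, and both were then short of 2-fold.

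**Figure D3:**
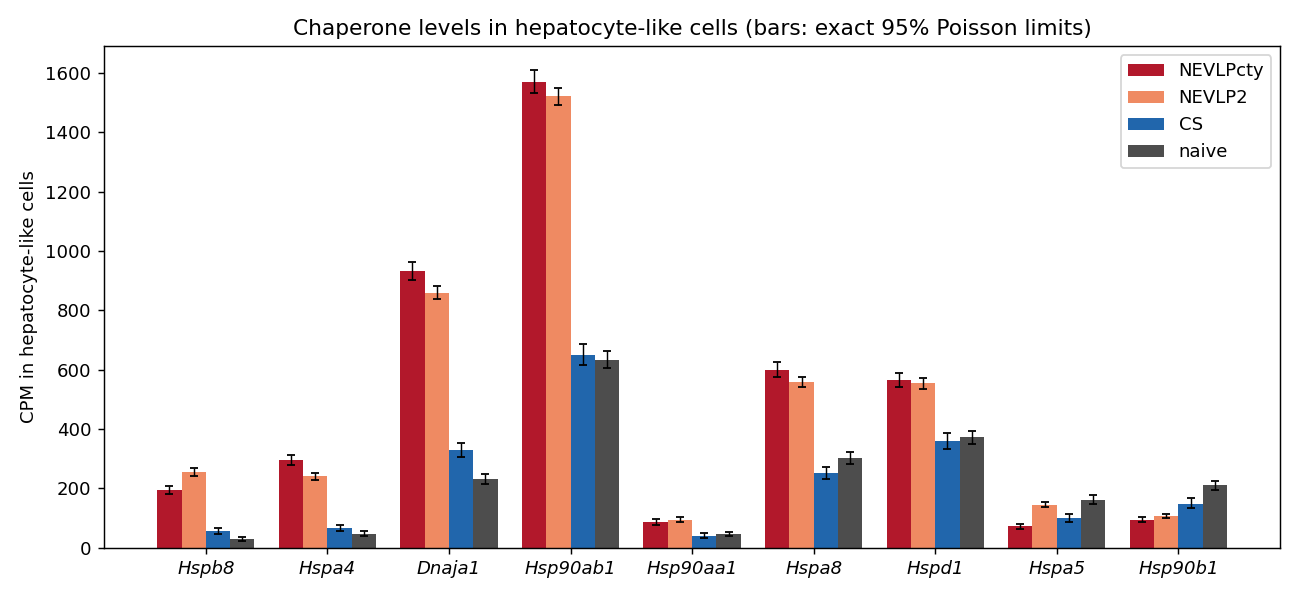
Levels in hepatocyte-like cells (CPM, linear axis from 0) of 9 cytosolic, mitochondrial and ER chaperones in the 4 libraries; error bars are exact 95% Poisson limits and cover counting error only. Hspb8, Hspa4 and Dnaja1 are high in NEVLPcty and NEVLP2 and low in CS and naive, while Hspa5 and Hsp90b1 are highest in naive.

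Kupffer-like cells, the resident macrophages of the liver, had high cytosolic levels after perfusion in the Hsp70 and Hsp90 systems. Dnaja1 was at 309 CPM in NEVLPcty, 476 in NEVLP2, 147 in CS and 104 in naive, and NEVLP2 was 4.57-fold (95% interval 3.97 to 5.30) above naive. Hspa8 was at 2088 CPM in NEVLPcty, 2795 in NEVLP2, 858 in CS and 1242 in naive. Hsp90aa1 was at 299.6 CPM in NEVLPcty, 359 in NEVLP2, 114 in CS and 135 in naive. For all 3 genes NEVLP2 was the highest library and NEVLPcty the next. The cytosolic sum in this class was 6104 CPM in NEVLPcty, 7113 in NEVLP2, 4205 in CS and 4274 in naive. The ER sum was 1364 CPM in NEVLPcty, 1551 in NEVLP2, 1343 in CS and 1611 in naive and did not separate the perfused from the other libraries.

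In T-like cells, the cells the study was about, Dnaja1 was again higher after perfusion, as were the ER members Hspa13 and Dnajc3. The ER member Dnajb12 was also at least 2-fold higher in NEVLP2 than in naive. Dnaja1 was at 361 CPM in NEVLPcty, 584 in NEVLP2, 212 in CS and 189 in naive, with NEVLP2 3.10-fold (95% interval 2.80 to 3.43) above naive. Hspa13, an Hsp70 relative found in microsomes, was at 72.3 CPM in NEVLPcty, 80.6 in NEVLP2, 36.7 in CS and 22.3 in naive, with NEVLP2 3.61-fold (95% interval 2.69 to 4.86) above naive. Dnajc3, an ER J-domain protein that also restrains the translation-blocking kinase PERK, was at 216 CPM in NEVLPcty, 212 in NEVLP2, 101 in CS and 87.0 in naive, with NEVLP2 2.43-fold (95% interval 2.07 to 2.86) above naive. The 2 perfused libraries were above CS and naive for Dnaja1, Hspa13 and Dnajc3. The main ER chaperones did not share that order. Hspa5 was at 449 CPM in NEVLPcty, 596 in NEVLP2, 328 in CS and 528 in naive in T-like cells. Hsp90b1 was at 162 CPM in NEVLPcty, 179 in NEVLP2, 179.8 in CS and 155 in naive. Dnajb9, an ER J-domain protein that the unfolded protein response induces, was at 49.3 CPM in NEVLPcty, 55.7 in NEVLP2, 34.0 in CS and 100.2 in naive, so that naive was its highest library. Among the heat-inducible genes, Hsph1 was at 46.1 CPM in NEVLPcty, 64.5 in NEVLP2, 27.1 in CS and 41.8 in naive, lowest in CS. Dnajb1 was level in T-like cells, at 75.5 CPM in NEVLPcty, 75.2 in NEVLP2, 79.4 in CS and 77.6 in naive. The class holds 109 cells in NEVLPcty, 172 in NEVLP2, 173 in CS and 317 in naive.

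NK-like cells had the same directions for Hspa13 and Dnajc3. Hspa13 was at 108 CPM in NEVLPcty, 122 in NEVLP2, 38.9 in CS and 47.8 in naive. Dnajc3 was at 209 CPM in NEVLPcty, 158 in NEVLP2, 94.1 in CS and 88.8 in naive. Among the cytosolic genes of NK-like cells, Dnajb6 was at 139 CPM in NEVLPcty, 101 in NEVLP2, 45.4 in CS and 46.6 in naive. Bag3 was at 34.0 CPM in NEVLPcty, 22.7 in NEVLP2, 11.7 in CS and 8.07 in naive, and in NEVLP2 1 cell held 47.5% of its UMIs, without which the level was 11.9 CPM. NEVLPcty was the highest library for Dnajb6 and Bag3 and NEVLP2 the next. Hsph1 was at 104 CPM in NEVLPcty, 103 in NEVLP2, 51.3 in CS and 54.6 in naive, so that the 2 perfused libraries were level with each other, and NEVLP2 was 2.01-fold (95% interval 1.54 to 2.66) above CS.

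Of the 7 averaged classes, monocyte or macrophage-like cells had the largest ratio of NEVLP2 over CS for the ER chaperone Hspa5. It was at 845 CPM in NEVLPcty (95% interval 801 to 890.2), 1745 in NEVLP2 (1716 to 1775), 435 in CS (416 to 454) and 535 in naive (517 to 553). NEVLP2 was 4.01-fold (95% interval 3.83 to 4.21) above CS and 3.26-fold (95% interval 3.14 to 3.39) above naive. NEVLPcty was 2.07-fold (95% interval 1.95 to 2.18) below NEVLP2. NEVLP2 thus stood apart from the other 3 libraries. The ER members of this class summed to 1627 CPM in NEVLPcty, 2761 in NEVLP2, 1205 in CS and 1444 in naive, in the same order. Hspa8 also had NEVLP2 highest, at 1469 CPM in NEVLPcty, 2604 in NEVLP2, 1009 in CS and 1202 in naive. Hsp90aa1 was at 342 CPM in NEVLPcty, 242 in NEVLP2, 87.6 in CS and 104 in naive. In NEVLPcty 1 of 189 cells held 25.6% of its UMIs, and without the cell with most UMIs of the gene in each library it was at 256 CPM in NEVLPcty, 238 in NEVLP2, 86.0 in CS and 102 in naive, so that the 2 perfused libraries were close and above the other 2. In NEVLP2 against naive, 4 of 60 members were higher (Hsp90aa1, Hspa5, Hspa8 and Hspb1; 6.67%, background 10.4%) and 17 were lower (28.3%, background 36.4%), so neither count stands above that of all genes. Neutrophil-like cells, with 211 cells in NEVLP2 and 76 in naive, had Hspa5 at 1083 CPM in NEVLP2 and 379.8 in naive. Their Hspa8 was at 913 CPM in NEVLP2 and 238 in naive. Both genes were higher in NEVLP2 there too. In the class average Hspa5 was at 615 CPM in NEVLPcty, 901 in NEVLP2, 418 in CS and 511 in naive, and NEVLP2 was 2.15-fold above CS. By class, NEVLP2 was above CS in 7 of 7 and NEVLPcty was above NEVLP2 in 0 of 7.

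The other major ER chaperones stayed within 2-fold in each pair of libraries. Hsp90b1 averaged 289 CPM in NEVLPcty, 338 in NEVLP2, 341 in CS and 391 in naive. Dnajb11 averaged 70.0 CPM in NEVLPcty, 83.9 in NEVLP2, 76.3 in CS and 80.8 in naive. Dnajb9 averaged 75.3 CPM in NEVLPcty, 82.5 in NEVLP2, 71.6 in CS and 93.0 in naive. Naive was the highest library for Hsp90b1 and Dnajb9, and NEVLP2 for Dnajb11. A pair of related J-domain proteins of the ER membrane differed in direction. Dnajb12 averaged 71.3 CPM in NEVLPcty, 58.0 in NEVLP2, 44.7 in CS and 34.7 in naive, higher in the perfused libraries. Dnajb14 averaged 11.6 CPM in NEVLPcty, 6.95 in NEVLP2, 21.8 in CS and 13.9 in naive, lowest in NEVLP2. In Kupffer-like cells Dnajb14 was at 9.30 CPM in NEVLPcty, 2.30 in NEVLP2, 17.9 in CS and 15.3 in naive. In monocyte or macrophage-like cells it was at 2.99 CPM in NEVLPcty, 1.82 in NEVLP2, 23.5 in CS and 16 in naive, so that both perfused libraries were lower than both others in these classes. Dnajc14, another J-domain protein of the ER membrane, averaged 6.57 CPM in NEVLPcty, 6.02 in NEVLP2, 15.9 in CS and 13.7 in naive. Dnajb14 and Dnajc14 were the 2 ER members that were at least 2-fold lower in NEVLP2 than in CS. Of the 14 ER folding partners outside the family, all were measured. In NEVLPcty against NEVLP2 1 was higher, and in NEVLPcty against CS 2 were lower. In NEVLP2 against CS 3 were lower. In NEVLP2 against naive 1 was higher and 2 were lower, and in CS against naive 1 was higher. The gene that was higher was Serpinh1 in each case, and the shares of all genes in these pairs are those given above. Sdf2l1, which works with Hspa5 and is induced by the unfolded protein response, averaged 43.4 CPM in NEVLPcty, 49.3 in NEVLP2, 128 in CS and 149 in naive. Sil1, an exchange factor for Hspa5, averaged 5.49 CPM in NEVLPcty, 4.35 in NEVLP2, 14.2 in CS and 13.3 in naive. Both were lower in the perfused libraries than in CS and naive, where Hspa5 was not. Other partners went the other way without reaching 2-fold. Herpud1 averaged 218 CPM in NEVLPcty, 197 in NEVLP2, 119 in CS and 103 in naive. Xbp1 averaged 18.6 CPM in NEVLPcty, 27.8 in NEVLP2, 14.7 in CS and 15.9 in naive. Of the 14 partners, 6 were above CS in NEVLPcty and 9 in NEVLP2, and 9 were above naive in NEVLP2.

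Mitochondrial members split into genes that were higher and genes that were lower after perfusion. Hspa9, the mitochondrial Hsp70, averaged 129 CPM in NEVLPcty, 132 in NEVLP2, 72.2 in CS and 79.7 in naive, and both perfused libraries were above CS in 7 of 7 classes. Hspd1, the barrel of the mitochondrial chaperonin, averaged 197 CPM in NEVLPcty, 211 in NEVLP2, 166 in CS and 182 in naive. Hspe1, its lid, averaged 155 CPM in NEVLPcty, 135 in NEVLP2, 132 in CS and 257 in naive. In mammals this pair is known to be transcribed in opposite directions from 1 promoter region. Hspd1 stayed nearly level, while the log2 ratio of Hspe1 to naive was -0.93 in NEVLP2 and -0.96 in CS. Naive held the highest Hspe1 level in all 7 averaged classes. In T-like cells Hspe1 was at 142 CPM in NEVLPcty, 159 in NEVLP2, 165 in CS and 329 in naive. In conventional dendritic-like cells it was at 72.5 CPM in NEVLPcty, 62.8 in NEVLP2, 85.1 in CS and 218 in naive. The 3 preserved livers lay together in both classes, below naive. Endothelial-like cells, for which naive had too few cells, had Hspe1 at 59.8 CPM in NEVLPcty, 136 in NEVLP2 and 64.1 in CS, or 51.1 CPM in NEVLPcty, 46.9 in NEVLP2 and 64.1 in CS when the unnamed clusters 1 and 6, which endothelial markers led, cluster 6 only narrowly, were added, so that the high NEVLP2 level was not found in the wider set.

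Dnajc19, a J-domain protein of the mitochondrial inner membrane, averaged 46.8 CPM in NEVLPcty, 54.2 in NEVLP2, 92.9 in CS and 108 in naive. It was at least 2-fold lower in NEVLP2 than in naive in 6 of 7 classes. The exception was hepatocyte-like cells, at 156 CPM in NEVLPcty, 177 in NEVLP2, 164 in CS and 184 in naive. In NK-like cells Dnajc19 was at 34.0 CPM in NEVLPcty, 42.0 in NEVLP2, 96.0 in CS and 114 in naive. In conventional dendritic-like cells it was at 20.8 CPM in NEVLPcty, 25.0 in NEVLP2, 68.4 in CS and 84.4 in naive. In plasmacytoid dendritic-like cells it was at 21.8 CPM in NEVLPcty, 32.1 in NEVLP2, 88.6 in CS and 109 in naive. The 2 perfused libraries were low together and CS and naive high together in these 3 classes. Dnajc15, its paralog in the same membrane, averaged 28.5 CPM in NEVLPcty, 36.0 in NEVLP2, 56.4 in CS and 51.0 in naive. Dnajc30, a further mitochondrial J-domain protein, averaged 10.0 CPM in NEVLPcty, 7.82 in NEVLP2, 16.5 in CS and 15.1 in naive. Both also had the perfused libraries below the others. Of the partner list of mitochondrial exchange factors and proteases, 6 of 7 genes were measured, and Grpel2, an exchange factor for Hspa9, was at least 2-fold higher in NEVLP2 than in CS and than in naive. It averaged 19.7 CPM in NEVLPcty, 27.7 in NEVLP2, 13.2 in CS and 12.5 in naive.

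Some members that were lower after perfusion have known roles away from protein refolding. Hspb11, a subunit of the intraflagellar transport complex in spite of its symbol, averaged 7.01 CPM in NEVLPcty, 7.71 in NEVLP2, 21.7 in CS and 20.7 in naive, and it was at least 2-fold lower in each perfused library than in CS. In monocyte or macrophage-like cells it was at 1.20 CPM in NEVLPcty, 2.60 in NEVLP2, 32.7 in CS and 23.2 in naive. Dnajb13, known from the axoneme of sperm and cilia, averaged 0.526 CPM in NEVLPcty, 0.668 in NEVLP2, 2.83 in CS and 2.28 in naive. Kupffer-like cells held 9 of its UMIs in NEVLPcty, 27 in NEVLP2, 154 in CS and 17 in naive. It was lower in both perfused libraries than in CS, on few counts. Dnajb3, known from testis, averaged 0.452 CPM in NEVLPcty, 0.926 in NEVLP2, 1.66 in CS and 1.74 in naive, also on few counts. Hspb6, a small heat shock protein known from muscle, averaged 3.23 CPM in NEVLPcty, 1.30 in NEVLP2, 4.21 in CS and 3.26 in naive. For Hspb6 only NEVLP2 was low, and NEVLPcty was level with naive. A pair of nuclear J-domain proteins was lower without reaching 2-fold. Dnajc9, which handles histones, averaged 38.3 CPM in NEVLPcty, 31.2 in NEVLP2, 61.0 in CS and 56.1 in naive. Dnajc2, which sits on the ribosome and on chromatin, averaged 53.8 CPM in NEVLPcty, 56.0 in NEVLP2, 88.1 in CS and 76.2 in naive.

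The CCT chaperonin, the cytosolic barrel that folds actin and tubulin, was the 1 group in which no member passed 2-fold in any pair of class-averaged levels. Cct5 averaged 327 CPM in NEVLPcty, 336 in NEVLP2, 314 in CS and 315 in naive. Cct4 averaged 256 CPM in NEVLPcty, 249.8 in NEVLP2, 226 in CS and 243 in naive. Cct7 averaged 196 CPM in NEVLPcty, 191 in NEVLP2, 200.5 in CS and 190.1 in naive. These subunits were nearly level across the libraries. Cct3 had NEVLP2 highest, at 187 CPM in NEVLPcty, 217 in NEVLP2, 149 in CS and 149 in naive. Cct6a did too, at 143 CPM in NEVLPcty, 175 in NEVLP2, 139 in CS and 139 in naive. Cct2 was level, at 174 CPM in NEVLPcty, 174 in NEVLP2, 175 in CS and 169.9 in naive. Cct8 was lowest in NEVLPcty, at 127 CPM in NEVLPcty, 143 in NEVLP2, 138 in CS and 141 in naive. Cct6b and Cct8l1 were under 1 CPM in every library. The sum over the group was less even within classes. In hepatocyte-like cells both perfused libraries were above CS, as given above. In monocyte or macrophage-like cells the sum was 1028 CPM in NEVLPcty, 981 in NEVLP2, 1364 in CS and 1342 in naive, with both perfused libraries below CS and naive. The chaperonin and prefoldin partner list (8 genes, with Tcp1, the remaining subunit of the barrel) had 0 genes past 2-fold in any pair. The list of cytosolic co-chaperones and heat shock factors (17 genes, all measured) also had 0. Its median log2 ratio was -0.03 in NEVLPcty against NEVLP2, 0.38 in NEVLPcty against CS, 0.39 in NEVLP2 against CS, 0.23 in NEVLP2 against naive and -0.04 in CS against naive. Hsf1, heat shock factor 1 itself, averaged 20.5 CPM in NEVLPcty, 20.8 in NEVLP2, 17.8 in CS and 18.4 in naive.

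Hspb1, the small heat shock protein Hsp27, which binds actin and is abundant in endothelium, was with Hspb6 1 of the 2 members that were at least 2-fold higher in NEVLPcty than in NEVLP2. It averaged 61.7 CPM in NEVLPcty, 22.1 in NEVLP2, 29.5 in CS and 4.39 in naive. The ratio was 2.80 in NEVLPcty over NEVLP2, 5.02 in NEVLP2 over naive and 6.72 in CS over naive. Naive was far below the 3 preserved livers. Many of these UMIs lay in single cells, so levels were also computed without the cell with most Hspb1 UMIs in each class and library, a setting chosen after seeing the data. The class average was then 40.0 CPM in NEVLPcty, 16.5 in NEVLP2, 25.1 in CS and 2.82 in naive, with ratios of 2.42 in NEVLPcty over NEVLP2 and 1.60 in NEVLPcty over CS, the second of which was 2.09 with all cells and so fell short of 2-fold. In conventional dendritic-like cells Hspb1 was at 73.1 CPM in NEVLPcty, 20.1 in NEVLP2, 10.2 in CS and 9.56 in naive. There 1 cell held 67.0% of its UMIs in NEVLPcty, 39.0% in NEVLP2, 21.1% in CS and 88.9% in naive, and without that cell the level was 24.1 CPM in NEVLPcty, 12.3 in NEVLP2, 8.14 in CS and 1.09 in naive. In hepatocyte-like cells it was at 98.4 CPM in NEVLPcty, 50.3 in NEVLP2, 69.3 in CS and 16.4 in naive. In plasmacytoid dendritic-like cells it was at 111 CPM in NEVLPcty, 9.88 in NEVLP2, 17.7 in CS and 0 in naive, where 0 counts allow up to 2.63 CPM. There 1 cell held 52.7% of the UMIs in NEVLPcty, 59.1% in NEVLP2 and 23.9% in CS, and without that cell the level was 53.3 CPM in NEVLPcty, 4.06 in NEVLP2, 13.6 in CS and 0 in naive. NEVLPcty was the highest library in these 3 classes and naive the lowest, with and without those cells, though the level in NEVLPcty then rests on few UMIs in plasmacytoid dendritic-like cells. T-like cells differed in order, at 10.5 CPM in NEVLPcty, 8.73 in NEVLP2, 24.4 in CS and 0 in naive, where CS was highest and 0 counts in naive allow up to 1.06 CPM.

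Endothelial-like cells had higher Hspb1 levels than every averaged class in the same library, and endothelial marker transcripts were found in the other classes along with it. The list of endothelial markers has 13 genes, of which 12 are among the features and Pecam1 is not. In NK-like cells the 12 summed to 2277 CPM in NEVLPcty, 269 in NEVLP2, 823 in CS and 4.97 in naive. Hspb1 there was at 60.5 CPM in NEVLPcty, 27.2 in NEVLP2, 44.8 in CS and 0.621 in naive, in the same order of libraries. In T-like cells the markers summed to 160.4 CPM in NEVLPcty, 57.1 in NEVLP2, 305 in CS and 9.73 in naive, again in the order of Hspb1. Of the 12 markers, T-like cells had a UMI of 9 in NEVLPcty, 9 in NEVLP2, 12 in CS and 5 in naive. Stab1 and Clec4g, markers of sinusoidal endothelium, were at 0 in T-like cells of NEVLPcty, NEVLP2 and naive. NK-like cells had a UMI of 12 markers in NEVLPcty, 11 in NEVLP2, 12 in CS and 6 in naive. In hepatocyte-like cells the markers summed to 356 CPM in NEVLPcty, 245 in NEVLP2, 1124 in CS and 69.6 in naive, and the order was not that of Hspb1, since CS had the highest sum and NEVLPcty the most Hspb1. In plasmacytoid dendritic-like cells they summed to 2165 CPM in NEVLPcty, 2375 in NEVLP2, 1610 in CS and 1088 in naive. Of these sums Kdr alone made up 786 CPM in NEVLPcty, 2213 in NEVLP2, 1288 in CS and 987 in naive, and the other 11 markers 1379.7 CPM in NEVLPcty, 163 in NEVLP2, 322 in CS and 101 in naive, which is the order of Hspb1 in this class. In Kupffer-like cells the sums were 1265 CPM in NEVLPcty, 489 in NEVLP2, 594 in CS and 247 in naive. Hspb1 there was at 34.4, 25.8, 17.2 and 4.21 CPM in the same libraries. In monocyte or macrophage-like cells the sums were 1297, 1476, 1064 and 347 CPM, with Hspb1 at 43.7, 12.4, 22.9 and 0 CPM. Neither class had the order of Hspb1. In conventional dendritic-like cells the sums were 1273, 664, 410 and 210 CPM, in the order of Hspb1. Fcgr2b alone made up 446, 1267, 528 and 258 CPM of the monocyte or macrophage-like sums. In conventional dendritic-like cells it made up 715 CPM in NEVLPcty and 495 in NEVLP2, and in CS no marker was above 120. The orders in these 2 classes thus rest largely on Fcgr2b, and orders without it are not given here. In endothelial-like cells themselves the sum was 16137 CPM in NEVLPcty, 11860 in NEVLP2 and 20690 in CS. The part that endothelial RNA in the droplets of other cells, or doublets with endothelial cells, had in the Hspb1 levels was not tested.

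**Figure D4:**
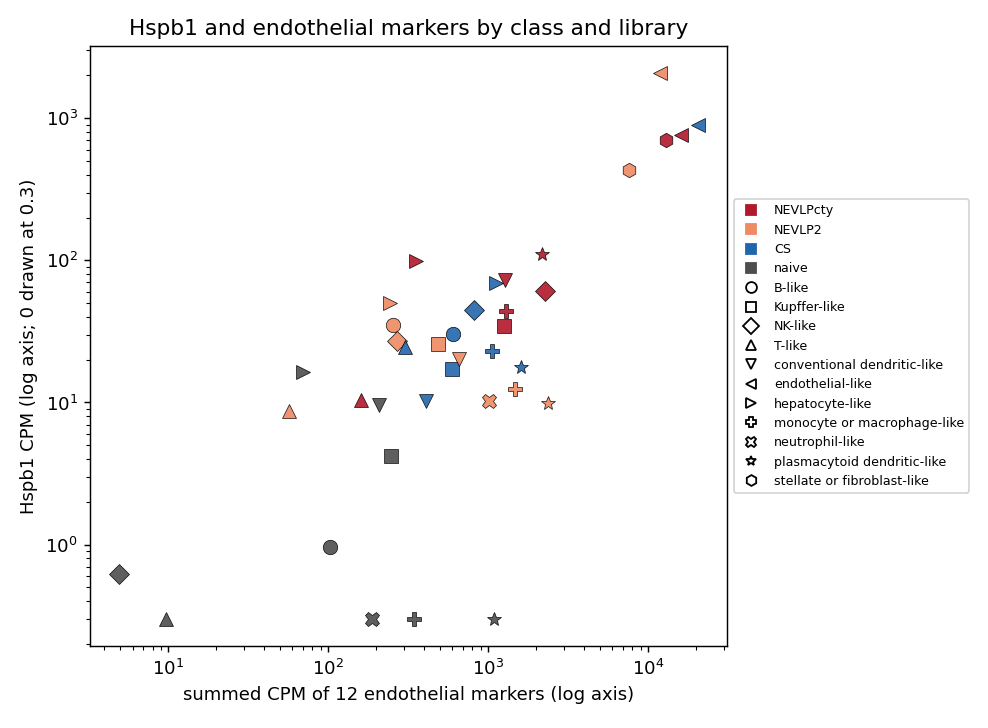
Hspb1 (CPM, vertical axis) against the summed endothelial markers (CPM, horizontal axis) in each cell class and library, both on logarithmic axes; each symbol is 1 class in 1 library. Endothelial-like and stellate or fibroblast-like cells lie at the top right, and the symbols of naive lie lowest in each class that naive shares with the other libraries; a level of 0 is drawn near the foot of the plot.

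In endothelial-like cells several cytosolic chaperones, the ER chaperone Hspa5 and the mitochondrial Hspa9 were several-fold above CS in both perfused libraries. The levels depend on which clusters are counted. Endothelial markers also led 2 clusters that passed no naming rule, cluster 1 with 3321 cells of NEVLPcty and cluster 6 with 1771 cells of NEVLP2 and 59 of NEVLPcty, and values with these added, a setting chosen after seeing the data, stand beside those of the named class. The mean log2 fold of the endothelial markers over other cells was 1.19 in cluster 1. In cluster 6 it was 0.0892, against 0.0677 for the stellate or fibroblast list and a naming limit of 0.5. Cluster 6, with 11 endothelial markers detected, is thus only weakly endothelial by these markers. Its NEVLP2 cells outnumber the 519 of the named class, so the NEVLP2 values of the wider set rest mostly on it. Hsph1 was at 198 CPM in NEVLPcty (95% interval 192 to 205), 419 in NEVLP2 (394 to 444) and 42.9 in CS (40.4 to 45.5), and NEVLP2 was 9.76-fold (95% interval 8.97 to 10.6) above CS. With clusters 1 and 6 added Hsph1 was at 147 CPM in NEVLPcty, 125 in NEVLP2 and 42.9 in CS, and NEVLP2 was 2.91-fold (95% interval 2.70 to 3.15) above CS. The direction was kept at a smaller size. Hspb1 was at 767 CPM in NEVLPcty, 2071 in NEVLP2 and 894 in CS. For Hspb1, NEVLP2 was 2.32-fold (95% interval 2.25 to 2.39) above CS and NEVLPcty was 2.70-fold (95% interval 2.62 to 2.79) below NEVLP2. With clusters 1 and 6 added Hspb1 was at 603 CPM in NEVLPcty, 581 in NEVLP2 and 894 in CS. In that wider set the 2 perfused libraries were close to each other, at a ratio of 1.04, and both were below CS, so neither their order nor that of NEVLP2 and CS held. Dnajb6 was at 293 CPM in NEVLPcty, 364 in NEVLP2 and 42.7 in CS. Bag3 was at 248 CPM in NEVLPcty, 359 in NEVLP2 and 67.4 in CS. Hsp90aa1 was at 648 CPM in NEVLPcty, 747 in NEVLP2 and 213 in CS. All 3 had both perfused libraries several-fold above CS, and with clusters 1 and 6 added the ratio of NEVLP2 over CS was 7.25 for Dnajb6, 3.02 for Bag3 and 2.12 for Hsp90aa1. Hspa5 was at 1699 CPM in NEVLPcty, 2432 in NEVLP2 and 568 in CS. Hspa9 was at 216 CPM in NEVLPcty, 182 in NEVLP2 and 41.1 in CS. With the 2 clusters added the ratio of NEVLP2 over CS was 3.25 for Hspa5 and 4.97 for Hspa9, so both stayed past 2-fold. Dnajb1 went the other way, at 78.3 CPM in NEVLPcty, 132 in NEVLP2 and 295 in CS, and NEVLPcty was 3.77-fold (95% interval 3.57 to 3.98) below CS. The cytosolic members summed to 9728 CPM in NEVLPcty, 13001 in NEVLP2 and 5923 in CS. The ER members summed to 3434 CPM in NEVLPcty, 4056 in NEVLP2 and 1851 in CS, to which Hspa5 gave the most. With clusters 1 and 6 added the cytosolic sum was 9269 CPM in NEVLPcty, 8604 in NEVLP2 and 5923 in CS. The ER sum was then 3655 CPM in NEVLPcty, 3348 in NEVLP2 and 1851 in CS. Both perfused libraries stayed above CS, and their order turned.

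By count, 12 of 69 members were at least 2-fold higher in NEVLPcty than in CS in endothelial-like cells (17.4%, background 9.13%) and 17 were at least 2-fold lower (24.6%, background 39.6%). In NEVLP2 against CS, 18 of 68 were higher (26.5%, background 9.23%) and 20 were lower (29.4%, background 47.2%). In both pairs the share of members that were higher lay above that of all genes and the share that were lower lay below it, with no test made. The 12 of the first pair were Bag1, Bag2, Bag3, Dnaja2, Dnajb6, Dnajc5, Hsp90aa1, Hspa13, Hspa4, Hspa5, Hspa9 and Hsph1. The median log2 ratio was 0.32 for the cytosolic members in NEVLPcty against CS and 0.84 in NEVLP2 against CS, where all genes had medians of -0.65 and -0.90, and -1.23 and -1.86 for the mitochondrial members. The ER members had medians of 0.63 and -0.07, with 2 of 15 higher and 2 lower in NEVLPcty against CS and 2 of 15 higher and 4 lower in NEVLP2 against CS. The CCT subunits had medians of 0.32 and -0.00. With clusters 1 and 6 added, 13 members were higher in each of the 2 pairs. The share of all genes in this wider set is not given here. The immediate early genes summed to 23670 CPM in NEVLPcty, 30388 in NEVLP2 and 47908 in CS in endothelial-like cells, highest in CS, and their part was not tested. Relative to the median of all genes, 27 and 31 members were higher in these 2 pairs. Centring on that median also changes the share of all genes past 2-fold. The backgrounds above therefore do not apply to these counts, which are not read as a result about chaperones.

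The perfused and the cold-stored endothelial-like cells lay almost wholly in different clusters. Clusters 2, 12 and 14, which held nearly all the CS cells, had 18, 21 and 21 cells of NEVLPcty and 5, 13 and 3 of NEVLP2. Cluster 11 held 845 cells of NEVLPcty, which is 27% of that library's endothelial-like cells, and 388 of NEVLP2, which is 74.8%, with 2 cells of CS. Its first leading gene is LOC108348108, the Hsp70 feature described below, which was among the genes used for clustering. Hsph1 and Hspb1, which were not, are also among its 10 leading genes. Within cluster 11 Hsph1 was at 641 CPM in NEVLPcty and 549 in NEVLP2. Hspb1 was there at 2382 CPM in NEVLPcty and 2629.5 in NEVLP2. In cluster 4, with 71.1% of the NEVLPcty and 21.2% of the NEVLP2 endothelial-like cells, Hsph1 was at 65.0 CPM in NEVLPcty and 65.4 in NEVLP2. Hspb1 was at 253 CPM in NEVLPcty and 348 in NEVLP2 in cluster 4. The 2 perfused libraries were thus much closer within a cluster than over the class, for which they mix the clusters in different shares. CS cells had Hsph1 at 43.1 CPM in cluster 2, 76.7 in cluster 12 and 33.1 in cluster 14. They had Dnajb1 at 347 CPM in cluster 2, 259 in cluster 12 and 109.6 in cluster 14. In the unnamed clusters Hsph1 was at 98.7 CPM in NEVLPcty cells of cluster 1 and 51.9 in NEVLP2 cells of cluster 6. Hspb1 was there at 454 CPM in NEVLPcty cells of cluster 1 and 206 in NEVLP2 cells of cluster 6. The high levels were found in cluster 11 and not in these.

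**Figure D5:**
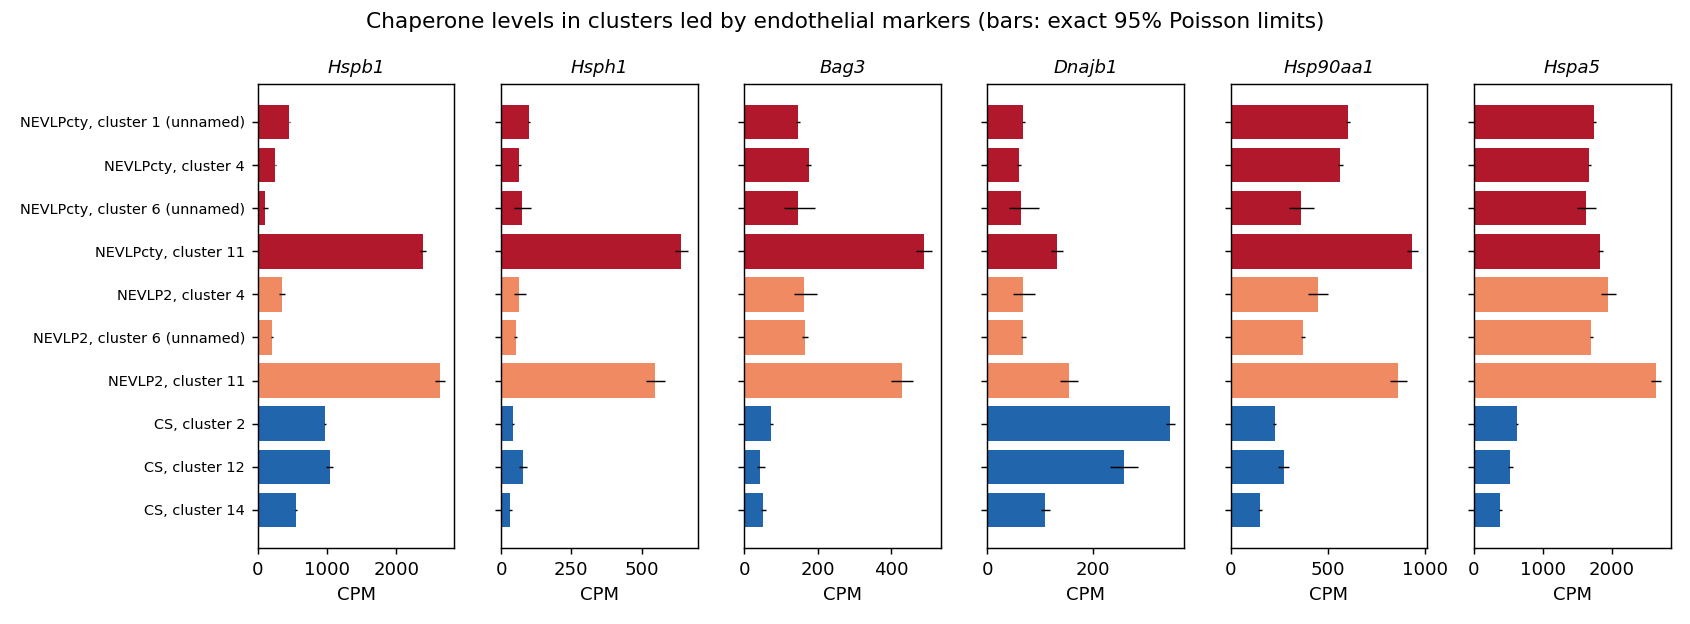
Levels of 6 chaperone genes (CPM, linear axes from 0) in the clusters led by endothelial markers, by library, with the unnamed clusters 1 and 6 included; error bars are exact 95% Poisson limits. Hsph1 and Hspb1 are several-fold higher in cluster 11 than in cluster 4 in both perfused libraries, and Dnajb1 is highest in cluster 2 of CS.

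The inducible Hsp70 gene is nearly missing under its own symbol. Hspa1a had 2 UMIs over all libraries, both in CS endothelial-like cells. The feature LOC108348108, which RefSeq's gene table names Hspa1b, does not meet the symbol rule and is not counted among the 87, but it is the other copy of this near-identical pair, and reads of such a pair cannot be told apart with certainty. It had 35120 UMIs in NEVLPcty, 19137 in NEVLP2, 39707 in CS and 327 in naive, and in endothelial-like cells it was at 1338 CPM in NEVLPcty, 3458 in NEVLP2 and 1385 in CS. With the unnamed clusters 1 and 6 added, of which cluster 6 is only weakly endothelial by its markers, it was at 730.0 CPM in NEVLPcty, 939.8 in NEVLP2 and 1385 in CS there, so that CS and not NEVLP2 was highest. Its class average was 134 CPM in NEVLPcty, 105 in NEVLP2, 88.4 in CS and 6.73 in naive, so that all 3 preserved livers were above the naive one, CS included. In Kupffer-like cells it was at 291 CPM in NEVLPcty, 251 in NEVLP2, 92.3 in CS and 17.4 in naive. In T-like cells it was at 34.6 CPM in NEVLPcty, 80.6 in NEVLP2, 43.6 in CS and 0.286 in naive. In hepatocyte-like cells it was at 21.6 CPM in NEVLPcty, 22.7 in NEVLP2, 73.1 in CS and 0.315 in naive, highest in CS. In monocyte or macrophage-like cells it was at 54.5 CPM in NEVLPcty, 143 in NEVLP2, 147 in CS and 17.2 in naive. NEVLPcty was highest in NK-like (302 CPM), plasmacytoid dendritic-like (124) and conventional dendritic-like cells (108). In the last, CS was highest without the cell with most UMIs in each library, at 75.8 CPM against 60.5 in NEVLPcty. Single cells held much of it as well, and without the cell with most of its UMIs in each library the level was 227 CPM in NEVLPcty, 232 in NEVLP2, 90.0 in CS and 5.81 in naive in Kupffer-like cells and 23.2 CPM in NEVLPcty, 51.3 in NEVLP2, 36.9 in CS and 0 in naive in T-like cells. Within the endothelial-like cells, cluster 11 had 5428 CPM in NEVLPcty and 4489 in NEVLP2. Unlike the members, this feature was among the genes used for clustering. It shares with Hspb1 the low naive level and the high level in endothelial-like cells, and the part of endothelial RNA in its levels elsewhere was not tested.

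Immediate early genes, which cells switch on during tissue handling as well as in stress, were counted in the same way. Of 13 on the list 12 were measured, and in NEVLPcty against CS 1 was at least 2-fold higher and 1 at least 2-fold lower. Ier3 averaged 531 CPM in NEVLPcty, 398 in NEVLP2, 73.1 in CS and 46.0 in naive, with both perfused libraries high. Fos averaged 402 CPM in NEVLPcty, 350.2 in NEVLP2, 832 in CS and 662 in naive. Dusp1 averaged 333 CPM in NEVLPcty, 249 in NEVLP2, 555 in CS and 738 in naive, with both perfused libraries low as for Fos. The perfused libraries were thus high for Ier3, as they were for Dnaja1 and Hsp90aa1, and low for Fos and Dusp1. Whether handling had a part in the chaperone levels was not tested.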

How the data were processed

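Single-cell RNA sequencing counts of 4 rat liver libraries, 1 per group, were analysed; no replicates were given, so no test was made. The deposited matrices hold raw counts of UMIs per gene and barcode; Cell Ranger appears as 2.1.1 in the submitters' processing notes and as 6.0.0 per the file headers, and build and annotation are not given in the sources used here. The 22250 features were summed to 22118 symbols. Barcodes below 200 genes or 500 UMIs, or above 20% mitochondrial UMIs, were dropped, leaving 11616 in NEVLPcty, 10186 in NEVLP2, 10798 in CS and 3300 in naive. Scrublet in scanpy 1.11.5 marked 0, 208, 326 and 3 doublets in NEVLPcty, NEVLP2, CS and naive, which were removed; the call in NEVLPcty had not worked, and few were found in naive. Counts scaled to 10000 per cell were clustered without the members (2000 variable genes, 30 components, 15 neighbours, Leiden resolution 1, leidenalg 0.10.2, no integration). Clusters were named from 19 marker lists (mean log2 fold of at least 0.5, at least 3 markers detected in over 10% of cells, and the 10 leading genes not against the name). Classes with at least 50 cells per library were compared by summed counts per 1000000 (CPM). The ratio step was run on simulated counts that held counting error only. That run checks the calculation and cannot show how far animals or preparations differ.

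The members, marker lists and partner lists were chosen with earlier results of these data known. The genes named were a fixed list of heat-inducible and major chaperones and CCT subunits, up to 5 highest and 5 lowest ratios per comparison with at least 100 counts and 2-fold, the 3 widest per class and the 3 highest per compartment. Other members, such as Dnaja2, Dnajb12, Dnajc2, Dnajc8, Dnajc9 and Dnajc30, were named after their values were seen. Intervals are exact at 95% (Poisson for levels, conditional binomial for ratios, binomial for shares), from scipy 1.17.1, and cover counting error only. Alternatives covered doublets, filters, clustering, class naming, thinning, scaling, count minimum, fold and single cells with many UMIs of a gene.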

Additional observations from a re-analysis of the deposited data

Results flagged for a closer look

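A few members were at least 2-fold higher in some classes and at least 2-fold lower in others under the same comparison. With 1 library per group none of these differences between classes was tested.

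Hspb1 was higher in NEVLPcty than in NEVLP2 by 2.22-fold in NK-like, 3.64-fold in conventional dendritic-like, 3.54-fold in monocyte or macrophage-like and 11.2-fold in plasmacytoid dendritic-like cells, whereas in endothelial-like cells the ratio was 0.370. With the unnamed clusters 1 and 6 added the endothelial ratio was 1.04, so the low value was not found in the wider set. Endothelial markers led cluster 6 only narrowly. Without the cell with most Hspb1 UMIs in each library the other ratios were 2.98, 1.97, 3.68 and 13.1 in the same 4 classes, so that of conventional dendritic-like cells was no longer past 2-fold.

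Dnajb9, the ER J-domain protein induced by the unfolded protein response, had a ratio of NEVLPcty over CS of 2.28 in NK-like and 0.478 in conventional dendritic-like cells. Its ratio of NEVLP2 over naive was 2.55 in hepatocyte-like, 0.432 in conventional dendritic-like and 0.423 in neutrophil-like cells. The neutrophil-like value rests on 29 UMIs in NEVLP2 and 23 in naive.

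Dnajb11, which works beside Dnajb9 in the ER, had a ratio of NEVLP2 over CS of 2.32 in B-like and 0.434 in endothelial-like cells. In B-like cells of NEVLP2 1 cell held 45.4% of its UMIs, and without the cell with most UMIs in each library the ratio was 1.39. Hspe1, the lid of the mitochondrial chaperonin, had a ratio of NEVLP2 over CS of 2.12 in endothelial-like and 0.389 in monocyte or macrophage-like cells. With clusters 1 and 6 added the endothelial ratio of Hspe1 was 0.731.

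Bag3, the Hsp70 partner of autophagy, had a ratio of NEVLP2 over naive of 2.81 in NK-like, 2.24 in conventional dendritic-like and 2.96 in hepatocyte-like cells, against 0.469 in T-like cells. The T-like value rests on 20 UMIs in NEVLP2 and 100 in naive. In NK-like cells the ratio was 1.92 without the cell with most Bag3 UMIs in each library, short of 2-fold.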

How the results depend on the processing

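No paired analysis was possible because each group has 1 library, and no library could be left out. Of 34 named class-averaged ratios past 2-fold, each that an alternative could compute kept its sign under it, and most stayed past 2-fold. That was 24 of 33 under a fixed doublet rate, 27 of 33 with Leiden resolution 2, 27 of 34 with all cells summed, 23 of 28 after thinning, 30 of 33 without hepatocyte-like cells, 19 of 25 in the 3 classes named below, 31 of 34 without the cell with most UMIs of each gene in each class and library, which moved no count by over 1.5 times and was chosen after seeing the data, and between 31 and 34 of 34 under the other settings. The counts of members past 2-fold moved more, and the cause was not tested beyond what each setting changes. A setting can also change the share of all genes past 2-fold, which is not given beside these counts. They show how the calls of members moved and not whether members moved more than all genes. In NEVLPcty against NEVLP2 (2 higher and 1 lower), a fixed doublet rate gave 1 higher and 0 lower, as did a count minimum of 200, a minimum of 10 gave 7 and 2, and all cells summed gave 8 and 2. There 0 were lower with Leiden resolution 2, classes from marker transcripts alone, thinning to 1000 UMIs and, added after seeing the data, the 3 classes that lay in 1 cluster in every library. The fixed rate gave 4 higher, and leaving out hepatocyte-like cells 5, in NEVLPcty against CS (9 higher). In NEVLP2 against naive (4 lower), marker transcripts alone gave 7 lower, leaving out hepatocyte-like cells 8 and a minimum of 200 counts 2. In CS against naive (1 higher and 0 lower), marker transcripts gave 2 higher, thinning 3, a minimum of 10 counts 3 higher and 1 lower, and centring on the median gene 1 lower. Centring gave 13 higher in NEVLP2 against CS (7), 7, 7 and 8 in hepatocyte-like cells in NEVLPcty against CS (15), NEVLP2 against CS (18) and NEVLP2 against naive (23), and 27 and 31 in endothelial-like cells (12 and 18). All cells summed, which lets cell make-up in, gave 16 lower in NEVLPcty against CS, 17 lower in NEVLP2 against CS, 13 higher and 11 lower in NEVLP2 against naive, and 12 higher and 2 lower in CS against naive. It set the median of all genes at 0.19, -0.35, -0.54, -0.18 and 0.32 (log2) in NEVLPcty against NEVLP2, NEVLPcty against CS, NEVLP2 against CS, NEVLP2 against naive and CS against naive. A threshold of 1.5-fold gave 7 higher in NEVLPcty against NEVLP2, 17 higher and 13 lower in NEVLPcty against CS, 17 and 15 in NEVLP2 against CS, 22 and 13 in NEVLP2 against naive, and 4 and 1 in CS against naive. It gave 29 and 30 higher in hepatocyte-like cells in NEVLPcty and NEVLP2 against CS, and 24 in endothelial-like cells in NEVLPcty against CS. In hepatocyte-like cells marker transcripts gave 10 in NEVLP2 against CS, and adding unnamed clusters, chosen after seeing the data, gave 7 in NEVLPcty and 10 in NEVLP2 against CS, with 7 lower in the class average of NEVLP2 against naive. The fixed doublet rate and resolution 2 left 6 classes, without monocyte or macrophage-like cells. A mitochondrial maximum of 10%, members kept in the clustering, and totals without mitochondrial and haemoglobin genes moved no count by over 1.5 times. Members with few counts, such as Dnajb3, Dnajb13 and Hspb6, are limited by depth.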

Other observations

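B-like cells numbered 101 in NEVLP2, 367 in CS and 139 in naive (48 in NEVLPcty, too few to be given), and several of their ER chaperones were higher in NEVLP2, much of it from 1 cell. B cells that become antibody-secreting cells are known to enlarge their ER. Hsp90b1 was at 865 CPM in NEVLP2, 241 in CS and 351 in naive in B-like cells, with NEVLP2 3.59-fold (95% interval 3.19 to 4.03) above CS. Dnajc3 was at 153 CPM in NEVLP2, 32.9 in CS and 55.2 in naive, with NEVLP2 4.65-fold (95% interval 3.42 to 6.36) above CS. In NEVLP2 the same cell held 52.5% of the Hsp90b1 and 46.9% of the Dnajc3 UMIs. Without the cell with most UMIs of the gene in each library, Hsp90b1 was at 437 CPM in NEVLP2, 235 in CS and 267 in naive and Dnajc3 at 86.4 CPM in NEVLP2, 32.1 in CS and 46.1 in naive. Both genes still had NEVLP2 highest and CS lowest, and Hsp90b1 was then short of 2-fold. The ER members of B-like cells summed to 1932 CPM in NEVLP2, 765 in CS and 1146 in naive, and to 1372 CPM in NEVLP2 without that cell. Dnaja1 was at 465 CPM in NEVLP2, 175 in CS and 153 in naive, again highest in NEVLP2.

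Plasmacytoid dendritic-like cells, known as secretors of type I interferon, carried an ER sum of 2462 CPM in NEVLPcty, 3157 in NEVLP2, 2211 in CS and 2265 in naive, more than each other averaged class in NEVLPcty, NEVLP2, CS and naive. Within them Hspa8 was at 927 CPM in NEVLPcty, 1884 in NEVLP2, 838 in CS and 1197 in naive. Dnajc3 was at 237 CPM in NEVLPcty, 389 in NEVLP2, 229 in CS and 194 in naive. NEVLP2 was the highest library for both genes, while NEVLPcty was close to CS.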
